A study of Homo sapiens with 6 samples.

Results

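The genes described here are 39 genes of DNA replication and of entry into S phase, out of 36328 gene names with a probe on the array. They were chosen by name from the gene column of the array files, and the brightest probe stood for each gene. The study used MOLT-4, a leukaemia line of the T-cell acute lymphoblastic type, transfected either with an empty vector (mock, n = 3) or with NUDT16 (n = 3), an RNA decapping enzyme. RNA with m3G or m7G caps, the trimethylated and the monomethylated guanosine cap, was immunoprecipitated from total RNA, and the eluates were run on 1-colour Agilent expression arrays. The cell line and the immunoprecipitation were common to both groups, and no treatment, time or promoter of the vector is given in the labels. Nothing in the labels says that the replicates came from separate cultures, so p-values measure the spread between these arrays, which may be technical. Input RNA that had not been immunoprecipitated was not analysed here, and in such bulk samples fewer cells in S phase, less RNA per cell and less capped RNA cannot be told apart.

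Replication starts at origins, where the origin recognition complex, with CDC6 and CDT1, loads the MCM2 to MCM7 ring, the core of the replicative helicase. CDC45 and the GINS complex turn that ring into an active helicase, and polymerases alpha, delta and epsilon copy the unwound strands with the sliding clamp PCNA, which replication factor C loads. Most of these genes are transcribed under E2F control as cells enter S phase, a step driven by cyclin E. Their messenger RNAs carry an m7G cap, which the antibody binds.

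In the comparison of all 6 arrays no replication gene passed the test between mock and NUDT16 arrays. Of the 39 genes, 26 had a lower mean signal in the NUDT16 arrays and 13 a higher one, and the groups overlapped for every gene. The median difference was -0.40 on the log2 scale (range -1.76 for MCM10 to 0.62 for POLD1), against -0.11 over all 17765 probes tested. With limma and Benjamini-Hochberg adjustment over those probes, 0 of 39 passed an adjusted p of 0.05, against 0.00563% of the probes tested, and every adjusted p was at least 0.999. At an unadjusted p under 0.05, again 0 of 39 passed, against 0.045%. The median turned with 1 array: without NUDT16 replicate 2 it was 0.031, with 20 genes above 0. In replicates 1 and 3 alone, with the replicate number as a block, 1 gene was called, MCM10 (-1.17, limma, adjusted p = 0.00876). Beside it, 613 of the 17765 probes tested were called. That fit gave all 39 genes the same standard error. The direction also depended on the scaling: all 39 genes lay below 0 with a median shift (median -1.08, all probes tested -0.78) and with no scaling (-1.40 and -1.10). With normexp background correction the median was 0.010, with 20 genes above 0, and that of all probes tested 0.47.

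Signals below are log2 fluorescence intensities relative to the 75th percentile, on the same array, of the probes well above background on all 6 arrays. A value of 0 is therefore a bright probe, and differences are NUDT16 minus mock. Of 58717 spots for cell RNA, between 39.3% and 52.0% were well above background on 5 arrays, and 14.6% on NUDT16 replicate 2. On those 5 arrays all 39 replication genes were well above background, and on NUDT16 replicate 2 it was 22 of 39. The share of genes measured on all 6 arrays, 22 of 39, stood beside 37.1% of the probes tested. For the other 17 genes the value on NUDT16 replicate 2 is a background reading. These 17 entered the test through the mock arrays alone. They are MCM4, MCM10, ORC1, ORC3, ORC5, ORC6, CDC6, GINS4, RFC2, RFC3, POLA2, POLD3, POLE, POLE2, PRIM1, RRM2 and CCNE2. Before scaling, mock replicates 1, 2 and 3 had a median log2 signal of 11.33, 9.44 and 10.58 over the 39 genes, and NUDT16 replicates 10.79, 4.97 and 11.18. No spot was saturated, and the number of arrays limits the precision. Both probes for NUDT16 itself were well above background on 0 of 6 arrays, so they did not check the labels. A probe for the pseudogene NUDT16P1 was the 1 probe called, with higher signal in NUDT16 arrays (limma, adjusted p = 0.00155). Its signal was at background in every mock array, so the size of its difference is not given. Of 20 T-lineage markers, 15 were well above background on all 6 arrays and none was missing from every array. The B-cell genes CD22, PAX5 and MS4A1, the myeloid genes CSF1R, ITGAM and MPO, and all 4 fibroblast genes were above background on none, whereas CD79A and KRT8 were on all 6.

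The values rest on 60-base probes, and 5 of them are shown because their genes differ in result while some share a base composition. Positions are those of the array files (hg19, 1-based), and each of these probes spans an intron, so the matching RNA is spliced exon sequence. The MCM5 probe (A_23_P132277, chr22:35819307-35820178, plus strand) has 53.3% G and C. The probes for POLA2 (A_23_P161615, chr11:65062111-65063057, plus strand), PRIM1 (A_23_P25019, chr12:57132284-57133111, minus strand) and RFC4 (A_23_P18196, chr3:186508001-186508130, minus strand) have 45%. The PCNA probe (A_23_P28886, chr20:5095957-5096102, minus strand) has 40%. No base is in capitals, since no part of a probe was singled out.
MCM5: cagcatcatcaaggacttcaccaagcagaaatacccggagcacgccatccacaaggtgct
POLA2: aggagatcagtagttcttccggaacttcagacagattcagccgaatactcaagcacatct
PRIM1: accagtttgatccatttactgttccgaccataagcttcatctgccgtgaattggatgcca
RFC4: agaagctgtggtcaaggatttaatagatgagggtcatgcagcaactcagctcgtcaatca
PCNA: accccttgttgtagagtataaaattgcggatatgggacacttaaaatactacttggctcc

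The plot of signals by array sets each gene against its own mean and shows the replicate numbers as well as the groups. NUDT16 replicate 2 was low for most genes, and replicate 3 of both groups was close to or above the mean for most.

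**Figure D1:**
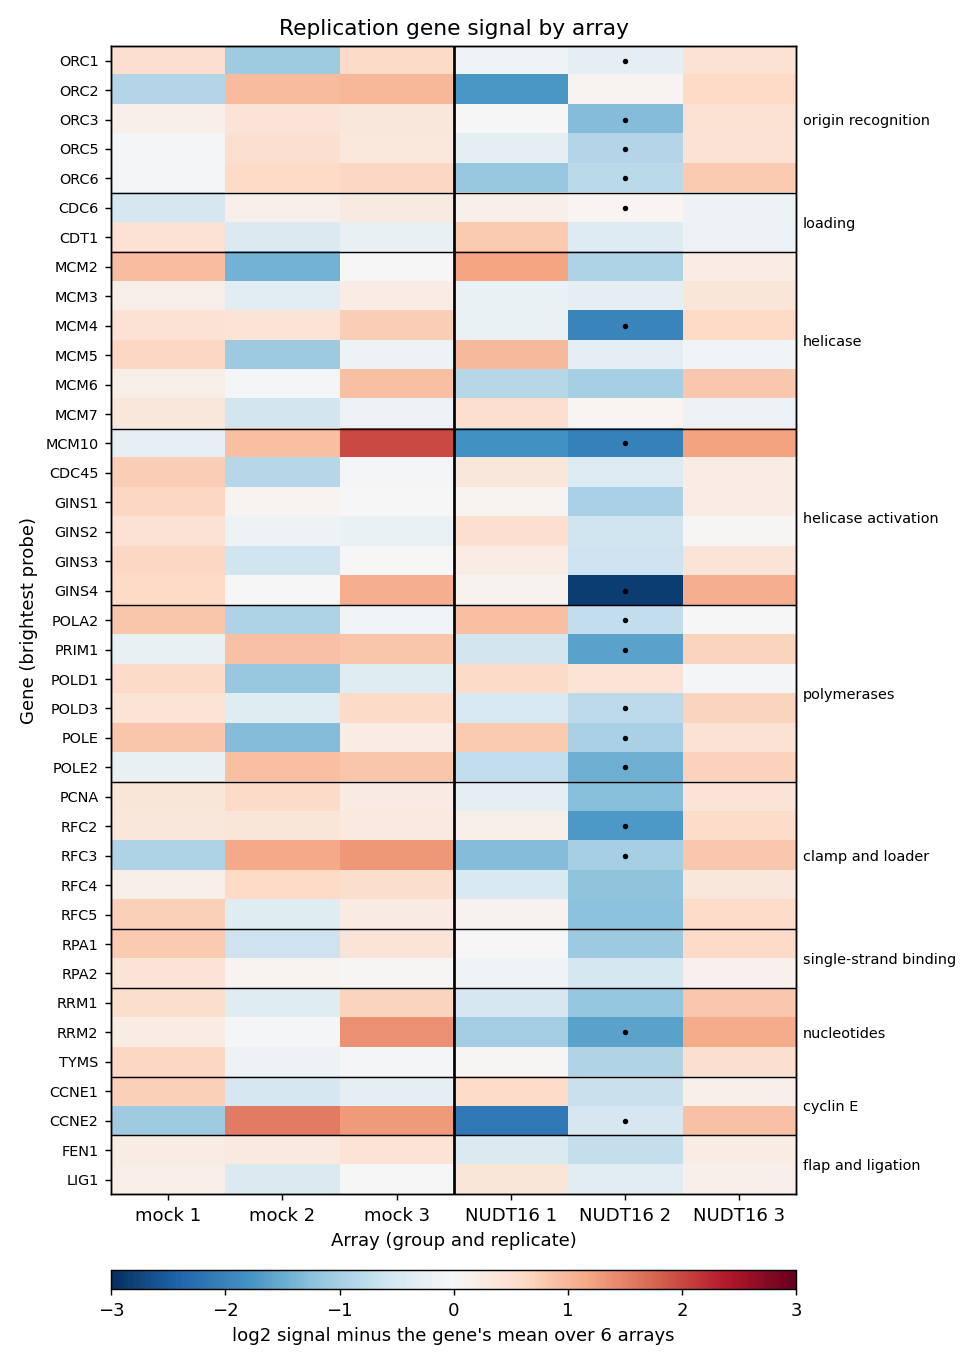
Log2 signal of each of the 39 replication genes (rows, by role) on each of the 6 arrays (columns), minus the gene's mean over the 6 arrays, from blue (lower) to red (higher). Dots mark the 17 values that were not well above background, all on NUDT16 replicate 2, where GINS4 has the lowest value.

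Origin recognition genes had a median difference of -0.58, with 4 of 5 below 0. ORC1, the largest subunit of the complex and an ATPase, read -4.78, -6.34 and -4.70 on mock arrays 1, 2 and 3 and -5.41, -5.58 and -4.83 on the NUDT16 arrays. Mock replicate 2 was its lowest array, and the difference was 0.0035 ± 0.65 (SE). ORC6, the smallest subunit, read -4.66, -4.0 and -3.99 in mock and -5.75, -5.43 and -3.82 in NUDT16 arrays, a difference of -0.78 ± 0.67. Its NUDT16 replicates 1 and 2 lay below every mock array, and NUDT16 replicate 3 above them all. ORC2, ORC3 and ORC5, further subunits, differed by -0.71, -0.58 and -0.51.

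The loading factors CDC6 and CDT1 differed little. CDC6 read -6.40, -5.74 and -5.64 in mock and -5.74, -5.83 and -6.05 in NUDT16 arrays, a difference of 0.052 ± 0.58. CDT1, which brings the MCM ring to the origin, read 0.30, -0.57 and -0.36 against 0.64, -0.51 and -0.32, a difference of 0.15 ± 0.61. Replicate 1 was the highest CDT1 array and replicate 2 the lowest in both groups.

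The 6 helicase subunits split evenly, 3 above 0 and 3 below, with a median difference of 0.098, and 5 of the 6 were measured on all arrays. MCM2 read 0.95, -1.39 and 0.030 in mock and 1.21, -0.91 and 0.26 in NUDT16 arrays, a difference of 0.32 ± 0.77. MCM5 read 0.99, -0.72 and 0.21 against 1.35, 0.090 and 0.29, a difference of 0.41 ± 0.67, the highest of the ring. MCM7 read 3.95, 3.05 and 3.44 against 4.11, 3.67 and 3.43, a difference of 0.26 ± 0.59. For all 3 genes replicate 2 was the lowest mock array, and replicate 1 was the highest array in each group. MCM3 read 1.51, 1.0 and 1.56 in mock and 1.14, 1.06 and 1.69 in NUDT16 arrays, a difference of -0.061 ± 0.58. MCM6 read 0.50, 0.25 and 1.23 against -0.53, -0.67 and 1.12, a difference of -0.68 ± 0.67. Its replicates 3 were alike in the 2 groups, and the other NUDT16 arrays lay below every mock array. MCM4 read -2.58, -2.61 and -2.26 against -3.21, -4.99 and -2.42, a difference of -1.05 ± 0.71. The lowest MCM4 value was a background reading on NUDT16 replicate 2, and in the other pairs the difference was -0.63 and -0.15. The products of these 6 genes form a ring with 1 copy of each, while their differences lay on both sides of 0.

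Among the genes that activate the helicase, 4 of 6 lay below 0 (median -0.25). MCM10, which is needed to start unwinding, had the lowest difference of all 39 genes. It read -3.80, -2.66 and -1.59 in mock and -5.38, -5.59 and -2.34 in NUDT16 arrays, a difference of -1.76 ± 0.90. MCM10 differed in each same-numbered pair by -1.58, -2.93 and -0.76, and NUDT16 replicate 3 still lay above mock replicates 1 and 2. CDC45, the helicase cofactor, read 0.28, -1.33 and -0.51 against -0.14, -0.87 and -0.23, a difference of 0.11 ± 0.63. The GINS subunits ran from 0.0036 (GINS3) through -0.045 (GINS2) and -0.46 (GINS1) to -1.12 (GINS4). The GINS4 value came from NUDT16 replicate 2, a background reading at -5.53, while the other NUDT16 arrays read -2.57 and -1.58 and the mock arrays -2.07, -2.69 and -1.57.

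The polymerase genes split 3 above and 3 below 0 (median -0.14), and subunits of 1 enzyme lay on both sides of 0. Whether such subunits differ from each other was not tested. The POLD1 and POLE probes are richer in G and C than those of POLD3 and POLE2. POLD1, the catalytic subunit of polymerase delta, read 1.13, -0.57 and 0.18 in mock and 1.13, 0.97 and 0.50 in NUDT16 arrays, a difference of 0.62 ± 0.64. This was the highest difference of the 39, and pair 2 supplied most of it at 1.54, against -0.0041 and 0.32 in pairs 1 and 3. POLD3, an accessory subunit of polymerase delta, differed by -0.40 ± 0.64. POLE2, the second subunit of polymerase epsilon, read -4.03, -2.93 and -2.98 against -4.57, -5.28 and -3.14, a difference of -1.02 ± 0.70. The catalytic subunit POLE differed by 0.15 ± 0.74. NUDT16 replicate 2, the lowest POLE2 array, was a background reading, and so were POLE and POLD3 on that array. POLA2, of the polymerase alpha and primase complex, read -2.73, -4.48 and -3.64 against -2.65, -4.29 and -3.54, a difference of 0.12 ± 0.69. It was higher in each same-numbered pair, by 0.081, 0.19 and 0.099, while its mock arrays spanned more than 1 log2 unit. PRIM1, the catalytic subunit of primase, read -3.10, -1.99 and -2.03 against -3.44, -4.49 and -2.21, a difference of -1.0 ± 0.71. The POLA2 and PRIM1 probes printed above have the same G and C content. Both genes were at background on NUDT16 replicate 2, which sets their pair 2 values. PRIM1 differed by -2.50 in pair 2, against -0.34 and -0.17 in pairs 1 and 3.

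All 5 genes of the clamp and its loader had a mean below 0 (median -0.78), and none passed the test. PCNA read 0.36, 0.58 and 0.24 in mock and -0.28, -1.28 and 0.40 in NUDT16 arrays, a difference of -0.78 ± 0.63. NUDT16 replicate 3 lay between the mock arrays, and the 3 PCNA probes tested gave -0.78, -0.53 and -1.14. RFC3, a loader subunit, read -4.13, -2.06 and -1.91 against -4.51, -4.20 and -2.39, a difference of -1.0 ± 0.79, with replicate 1 low in both groups. RFC5 read -0.88, -1.96 and -1.36 against -1.51, -2.84 and -1.05, a difference of -0.40 ± 0.66. RFC4 was the lowest of the genes measured on all arrays, at -0.88, and RFC2 differed by -0.66. In pair 3 the median of these 5 genes was 0.16, against -0.63 in pair 1 and -1.86 in pair 2.

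The single-strand binding genes RPA1 and RPA2 differed by -0.36 ± 0.67 and -0.35 ± 0.57. RPA1 read -0.052, -1.46 and -0.45 in mock and -0.85, -1.93 and -0.26 in NUDT16 arrays. RPA2 read -0.41, -0.72 and -0.77 against -0.93, -1.34 and -0.68. For both genes NUDT16 replicate 3 lay within the mock arrays and NUDT16 replicate 2 was lowest.

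The genes of deoxynucleotide supply were all below 0 (median -0.57). RRM2, the regulated small subunit of ribonucleotide reductase, read -3.99, -4.27 and -2.86 in mock and -5.26, -5.82 and -3.12 in NUDT16 arrays, a difference of -1.03 ± 0.78. The large subunit RRM1 differed by -0.57. TYMS, which makes thymidylate, read 1.21, 0.44 and 0.53 against 0.63, -0.32 and 1.07, a difference of -0.27 ± 0.62. TYMS was lower in pairs 1 and 2 and higher in pair 3.

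The differences of the cyclin E genes, which activate CDK2 at the start of S phase, lay apart without passing the test. CCNE1 read -0.65, -1.86 and -1.62 in mock and -0.81, -2.02 and -1.21 in NUDT16 arrays, a difference of 0.028 ± 0.63. CCNE2 read -5.30, -2.67 and -2.96 against -6.38, -4.73 and -3.36, a difference of -1.18 ± 0.89. Replicate 1 was the lowest array in each group for this CCNE2 probe. A further CCNE2 probe gave -0.46, and there replicate 1 was the highest mock array, at -3.97. In lagging-strand processing, the flap nuclease FEN1 read -1.53, -1.45 and -1.33 against -2.18, -2.47 and -1.53, a difference of -0.62 ± 0.58. The ligase LIG1 read 0.31, -0.33 and 0.11 against 0.48, -0.22 and 0.27, a difference of 0.15 ± 0.58.

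**Figure D2:**
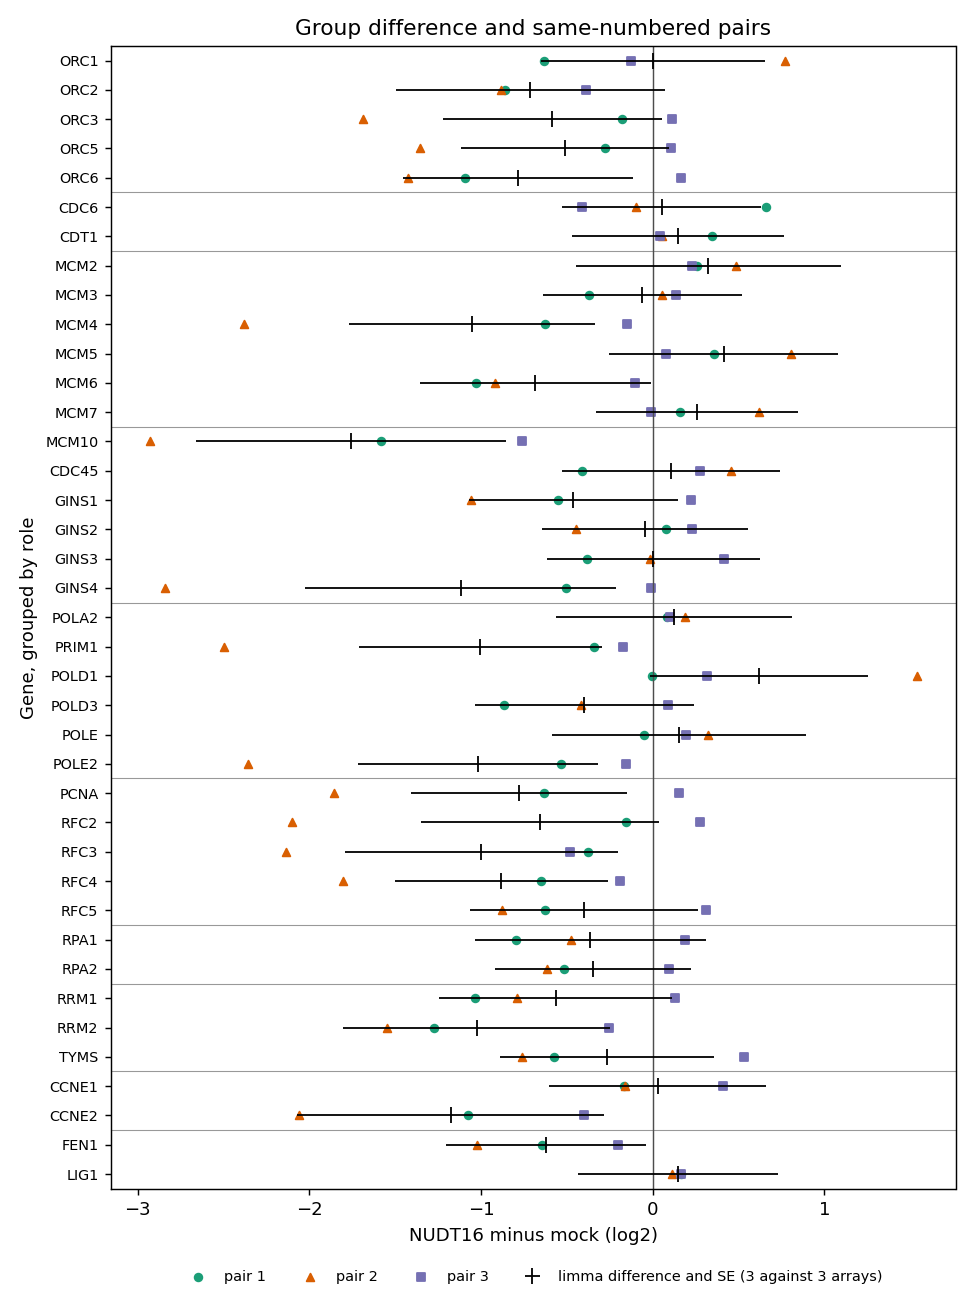
NUDT16 minus mock difference (log2) of each of the 39 genes by role, with the mean and its standard error from limma and the values of the 3 same-numbered pairs. The bars of most genes reach 0, and the pair 2 values spread farthest, from -2.93 (MCM10) to 1.54 (POLD1).

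At least 2-fold lower means occurred for 7 of 39 genes (MCM4, MCM10, GINS4, POLE2, PRIM1, RRM2 and CCNE2), against 7.05% of the probes tested, and at least 2-fold higher means for 0 of 39, against 1.29%. All 7 were background readings on NUDT16 replicate 2 and entered the test through the mock arrays alone. Such entry favours lower NUDT16 means, so this count is not read as a fall of these genes. Means above 0 occurred for 13 of 39, against 43.2%. None of the 39 had all NUDT16 arrays below all mock arrays, against 0.281% of the probes tested, and none had them all above, against 0.31%. The difference was negative in all 3 same-numbered pairs for 12 of 39 genes, against 27.5%, and positive in all 3 for 5 of 39, against 15.9%. Those 5 were MCM2, MCM5, POLA2, CDT1 and LIG1, of which POLA2 was at background on NUDT16 replicate 2.

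The 22 genes measured on every array had a median difference of -0.16, with 9 above 0, beside a median of 0.16 over the 6582 such probes. The 17 genes at background on NUDT16 replicate 2 had a median of -0.78, with 4 above 0, and their median was -1.69 in pair 2 against -0.51 and -0.13 in pairs 1 and 3. Over all 39 genes the median was -0.51 in pair 1, -0.79 in pair 2 and 0.099 in pair 3, so the pairs did not share a direction. The part of NUDT16 replicate 2 in the low values was not tested apart from leaving it out.

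Same-numbered arrays deviated together from their group means over all probes tested, which allows a fit within pairs. Over the 39 genes the signals of same-numbered arrays correlated at 0.98 in pair 1 and 0.99 in pair 3 but at 0.88 in pair 2, where NUDT16 replicate 2 was closer to each of the other 4 arrays (0.90 to 0.94) than to mock replicate 2. With replicate as a block, the median standard error of the 39 genes was 0.36, against 0.65 without it. Again 0 of 39 passed an adjusted p of 0.05 (limma, smallest adjusted p = 0.467), against 0.00563% of the probes tested. At an unadjusted p under 0.05, 3 of 39 were lower, against 8.94%, and 0 of 39 higher, against 0.816%. The 3 were MCM10 (limma with the block, unadjusted p = 0.00671), CCNE2 (unadjusted p = 0.022) and RRM2 (unadjusted p = 0.0279). Each was lower in 3 of 3 pairs, but all 3 were at background on NUDT16 replicate 2, which sets their pair 2 values. A further CCNE2 probe, also at background on that array, was higher in pair 3, at 0.28. Of the 22 genes measured on every array, 0 passed at this unadjusted p in either direction. The share among all probes measured on every array is not given here, so this count is not read as a result about the genes.

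With replicates 1 and 3 alone and the block, MCM10 fell by 1.17 ± 0.30 (SE, limma, adjusted p = 0.00876), in 2 of 2 pairs. Its pair differences were -1.58 and -0.76. In this fit limma gave each of the 39 genes the same standard error. The standard error and p-value therefore do not measure the spread of MCM10 itself. MCM10 was the 1 gene of 39 called lower, against 3.38% of the probes tested, and 0 of 39 were called higher, against 0.0675%. The median of the 39 genes in that fit was -0.16, against -0.22 over all probes tested. Without the block, the same 4 arrays gave 0 calls among the 39 genes.

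The genes also differed between replicates. Averaged over both groups, replicate 3 was at least 2-fold above replicate 1 for 9 of 39 genes, against 36.6% of the probes tested, and at least 2-fold below for 0 of 39, against 11.4%. By the brightest probe the highest were CCNE2 at 2.68, MCM10 at 2.62, RFC3 at 2.17 and ORC2 at 2.12. Further tested probes gave 0.037 for CCNE2, 2.31 for RFC3 and 1.26 for ORC2. The difference between replicates 3 and 1 had the same sign in the mock and in the NUDT16 arrays for 30 of 39 genes, with medians of 0.050 in mock and 0.56 in NUDT16 arrays. For MCM10 it was 2.21 and 3.03, for CCNE2 2.34 and 3.02, and for MCM5 -0.78 and -1.06, whereas for TYMS it was -0.67 and 0.43 and for PCNA -0.11 and 0.68. Across the 39 genes the replicate differences of the groups had r = 0.90 (Spearman's rho 0.88), as a description over genes that share slides and probes, and over all probes tested r = 0.93.

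**Figure D3:**
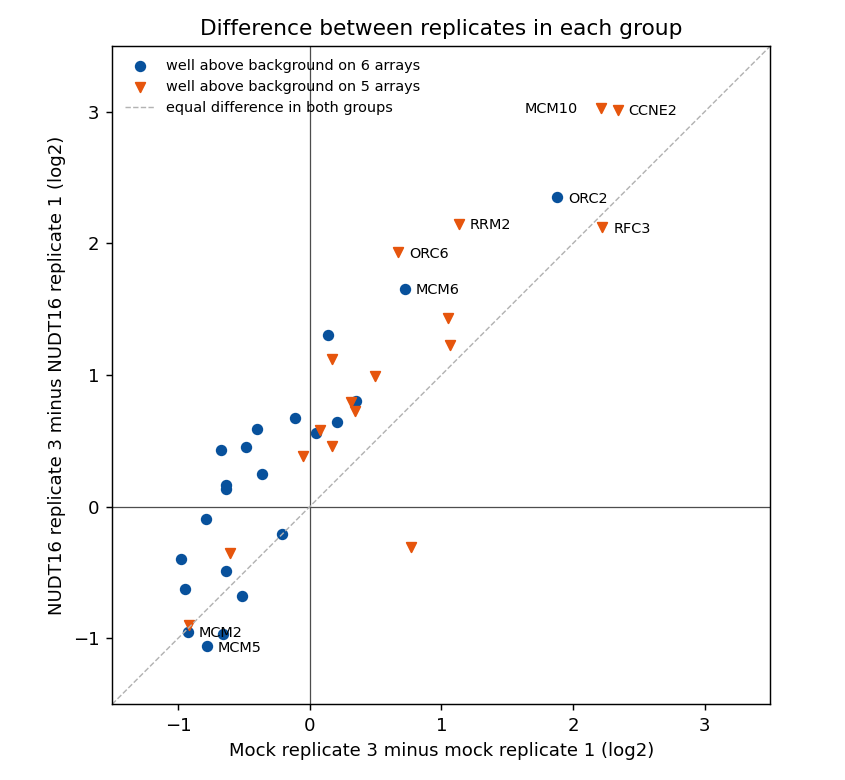
Difference between replicates 3 and 1 (log2) of the 39 genes in the mock arrays (horizontal axis) and in the NUDT16 arrays (vertical axis), with the line of equal difference dashed. MCM10 (2.21 and 3.03) and CCNE2 (2.34 and 3.02) lie at the upper right and MCM5 (-0.78 and -1.06) at the lower left.

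The base composition of the probes moved with the differences. Probe G and C content ran from 28.3% (MCM10) to 55.0%, and over the 39 genes it had r = 0.76 with the difference (Spearman's rho 0.71), against 0.40 over all probes tested. This is a description across probes that share the same arrays. Of the 13 genes with probes under 40% G and C, 0 had a mean above 0 (median -1.0), and of the 6 at 50% or more, 6 did (median 0.29). The 20 between had 7 above 0 (median -0.36). For all probes tested the same classes had medians of -0.32, 0.34 and -0.22. The correlation was 0.51 in pair 1, 0.78 in pair 2 and 0.35 in pair 3, and 0.68 over the 22 genes measured on every array. At a single composition of 45%, 10 genes ran from -1.0 (PRIM1) to 0.15 (LIG1), with 4 above 0. With the trend of signal on probe G and C content taken out within each array, the median of the 39 was -0.33 and 10 lay above 0, and of the 6 genes at 50% or more 1 lay above 0. Of the 13 genes under 40%, 0 lay above 0 as before, and the correlation with probe G and C content was 0.50. MCM2, MCM5 and MCM7 then lay at -0.095, -0.0053 and -0.19.

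**Figure D4:**
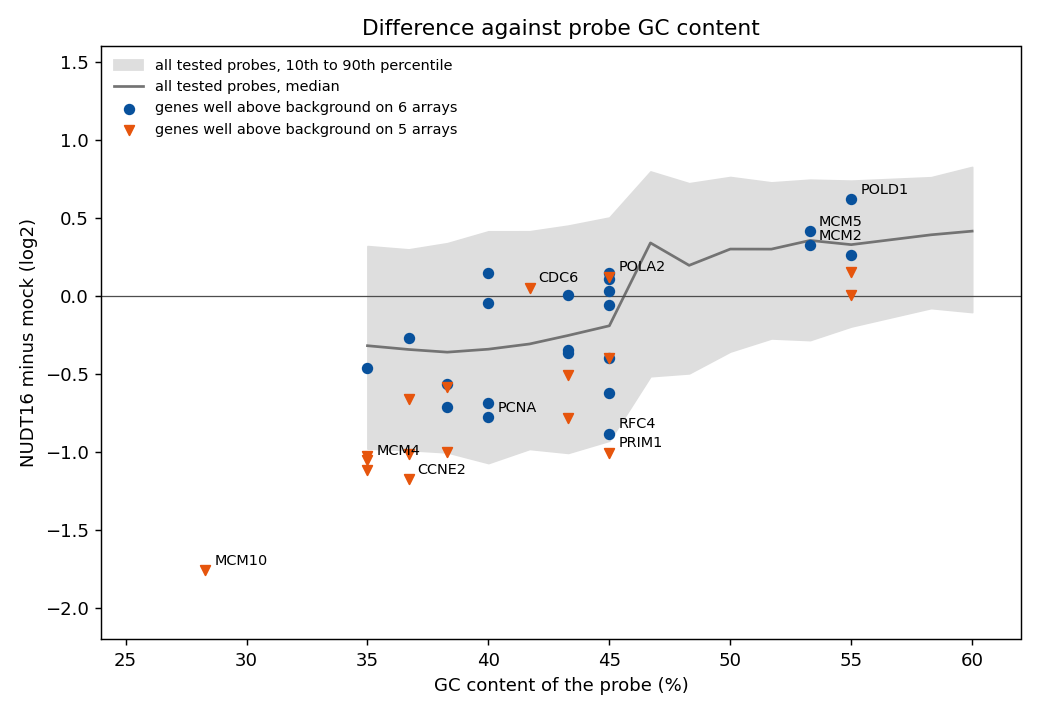
NUDT16 minus mock difference (log2) of the 39 genes against the G and C content of the probe (percent), with the median (line) of all probes tested at each content and a shaded band that spans most of them. Genes with probes under 40% all lie below 0, and the 6 at 50% or more all lie above 0.

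Genes with more than 1 tested probe gave a like sign for each probe. MCM5 gave 0.41 and 0.40, MCM7 0.26 and 0.14, POLE 0.15 and 0.12, RPA2 -0.35 and -0.40, ORC2 -0.71 and -0.40, and RFC3 -1.0 and -1.09. ORC5 gave -0.51 and -1.15. In replicates 1 and 3 alone the signs parted for MCM7 (0.077 and -0.11), POLE (0.071 and -0.40) and CCNE2 (-0.74 and 0.011). The second probes of POLE, RPA2, ORC2, RFC3, ORC5 and CCNE2 were at background on NUDT16 replicate 2.

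Promoter windows were examined because these genes share E2F control as background knowledge. RefSeq (GRCh38.p14) gave windows of 250 bases before to 50 after the start for 33 of the 39 genes, 40 windows in all. The windows for MCM4, MCM5, GINS4, POLD3, RPA2 and CCNE2 were not used here. The motifs TTTCCCGC, TTTGGCGC, TTTCGCGC and TTTGCCGC, all E2F-type, were searched on both strands, where neighbouring matches may overlap. At least 1 was found for 17 of 33 genes (51.5%), against 855 of 15843 protein-coding genes (5.4%). CCAAT was found for 57.6% (all genes 42.1%) and the GC box GGGCGG for 72.7% (all genes 64.3%). The 17 genes with an E2F-type match had a median difference of -0.045, with 8 above 0, and the 16 without had -0.59, with 4 above 0. MCM10, CCNE1, CDC45 and POLD1 had no match in the window, which says nothing of the factor. Stretches before the start of 5 genes with a match are shown, because they span the differences from RFC3 at -1.0 to CDT1 at 0.15. They lie at chr2:135876522-135876611 (MCM6, minus strand), chr20:5126638-5126697 (PCNA, minus strand), chr11:65261893-65261952 (POLA2, plus strand), chr13:33818078-33818137 (RFC3, plus strand) and chr16:88803738-88803788 (CDT1, plus strand). Capitals mark the motif matches, on either strand, and MCM6 has 4 in overlapping pairs.
MCM6: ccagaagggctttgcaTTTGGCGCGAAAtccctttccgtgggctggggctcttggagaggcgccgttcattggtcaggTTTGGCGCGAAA
PCNA: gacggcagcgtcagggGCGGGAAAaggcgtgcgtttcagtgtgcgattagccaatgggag
POLA2: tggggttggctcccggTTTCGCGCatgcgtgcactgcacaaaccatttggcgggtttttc
RFC3: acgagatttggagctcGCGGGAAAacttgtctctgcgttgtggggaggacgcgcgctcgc
CDT1: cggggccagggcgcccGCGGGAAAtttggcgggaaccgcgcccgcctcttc

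The cap is added to the first transcribed base, and the RefSeq starts gave this base. It was A in 42.5% of the 40 windows, G in 42.5%, C in 15.0% and T in none, against 50.1%, 36.2%, 11.4% and 2.3% of all windows of protein-coding genes. A C followed by at least 4 pyrimidines, the pattern of terminal oligopyrimidine messages, began 10% of the windows, those of ORC1, MCM2, RRM1 and CDT1, against 4.5%. Their differences were 0.0035, 0.32, -0.57 and 0.15.

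A further 42 replication genes were listed, 41 of which were on the array, and all 41 were tested. None passed the test, 12 had a mean above 0 and 29 below, and their median was -0.44. In replicates 1 and 3 with the block, CLSPN, a checkpoint mediator, fell by 0.95 (limma, adjusted p = 0.0463), and no other of the 41 was called, beside the 3.38% of probes called lower in that fit. The standard error in that fit was the same for all 41 genes, so it does not measure the spread of CLSPN itself. CLSPN was not called in the same 4 arrays without the block, nor in all 6 arrays with it (limma, adjusted p = 0.467). Of those measured on all arrays, the highest were POLD4, a small subunit of polymerase delta, at 0.92 ± 0.67, RNASEH2A, of ribonuclease H2, at 0.70 ± 0.62 and CHTF18, of an alternative clamp loader, at 0.66 ± 0.62. The lowest were CCNA2, cyclin A2, at -1.05 ± 0.75, DUT, which hydrolyses deoxyuridine triphosphate, at -1.04 ± 0.66 and TIPIN, of the fork protection complex, at -0.76 ± 0.62. POLD4 read -1.02, -2.10 and -2.11 in mock and -0.61, -0.057 and -1.79 in NUDT16 arrays, and CCNA2 read -2.43, -1.02 and -0.79 against -3.01, -3.30 and -1.08. For both, NUDT16 replicate 2 was the array farthest from its mock partner. The replication-dependent histone genes, another S-phase group, had a median of 0.41, with 62 of 63 above 0, but -0.37 in pair 3, where all 63 lay below 0. Their medians were 0.0096 in pair 1 and 1.55 in pair 2, and 0 of 63 passed the test.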

How the data were processed

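Agilent 1-colour arrays (design 039494) of cap-immunoprecipitated RNA were read with Feature Extraction 10.7.3.1, per the file headers. The deposited scanner values are linear intensity per spot. Background subtraction and spatial detrending had been applied to the processed intensity, with no normalization between arrays, per the file headers. The authors also deposited a value table in log2 units, used as an alternative, and how it was made is not given in the sources used here.

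Control spots and non-uniform or outlying spots were left out, and spots of 1 probe were averaged. The log2 processed intensity was shifted by the array's 75th percentile over the 6582 probes well above background on all 6 arrays. The percentile over all probes, a background value on NUDT16 replicate 2, was an alternative. A probe entered the test if every array of at least 1 group measured it above background (17765 of 50599). The test was limma's two-sided one (version 3.58.1, R 4.3.3; lmFit with eBayes), with Benjamini-Hochberg adjustment at 0.05. The procedure was tested on simulated data with equal noise for every probe, no array with few detected probes and no trend with probe GC content.

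The arrays lay on 3 slides, each with the mock and NUDT16 arrays of 1 replicate number. Same-numbered arrays deviated together from their group means (correlations of 0.84, 0.39 and 0.77), so the titles' numbers pair the arrays. Slide, scan and preparation cannot be told apart. Probe GC content is that of the deposited probe sequences.

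By rule, values on every array are given for MCM2 to MCM7, PCNA, RRM2, TYMS, CCNE1 and CCNE2, any gene called with or without the block, and the highest and lowest difference of each role. Of the other replication genes, the 3 with the largest difference each way among those measured on all arrays are named. GINS4 and CLSPN were added after their values were seen. The members and gene lists were chosen with earlier results of these data known. Other settings were normexp (offset 50), quantile normalization, no scaling, a median shift, a filter on all 6 arrays, no filter, array weights, a robust prior with an intensity trend, the mean of a gene's probes, 1 probe per gene, the replicate block, replicates 1 and 3, probe GC content removed, and leaving out each array.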

Additional observations from a re-analysis of the deposited data

How the results depend on the processing

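The median difference of the 39 genes was -0.40. Under other settings that used all 6 arrays it ran from -0.46 (the authors' deposited table) to 0.010 (normexp), except that it reached -1.08 with a median shift and -1.40 with no scaling. With 1 array left out it ran from -0.77 (without NUDT16 replicate 3) to 0.031 (without NUDT16 replicate 2). The count of genes called by limma was 0 in these fits. It was 1, MCM10, in replicates 1 and 3 with the block (-1.17, limma, adjusted p = 0.00876), where all 39 genes had the same standard error. With probe GC content removed as well, MCM10 was again the 1 call (-1.21, limma, adjusted p = 0.00302). Of the 17765 probes tested, 613 were called in the former fit and 726 in the latter. Few of the probes tested have a GC content as low as the 28.3% of the MCM10 probe, so the trend removed there is poorly known. The replicate block, which follows the slides and the titles' numbers, left the median at -0.40 and the count at 0, and changed no call.

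The sign of the difference was kept under all settings run for 15 of 39 genes: CCNE2, FEN1, GINS1, MCM10, MCM4, MCM6, ORC2, PCNA, POLE2, PRIM1, RFC3, RFC4, RPA2, RRM1 and RRM2. The median shift and no scaling put all 39 genes below 0, so only a gene below 0 could keep its sign. Of the 15, CCNE2, MCM10, MCM4, POLE2, PRIM1, RFC3 and RRM2 were at background on NUDT16 replicate 2. The other signs turned as follows, and the cause was not tested.

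With a median shift MCM2 lay at -0.35, MCM5 at -0.26, MCM7 at -0.42, ORC1 at -0.67, CDC6 at -0.63, CDT1 at -0.53, CDC45 at -0.57, GINS3 at -0.67, POLA2 at -0.55, POLD1 at -0.059, POLE at -0.52, CCNE1 at -0.65 and LIG1 at -0.53. With no scaling these 13 genes, in the same order, lay at -0.67, -0.58, -0.74, -0.99, -0.94, -0.85, -0.89, -0.99, -0.87, -0.38, -0.84, -0.97 and -0.85. Normexp gave ORC3 0.48, ORC5 0.25, ORC6 0.23, GINS2 0.17, RFC2 0.15, RFC5 0.010 and POLD3 0.098. Quantile normalization gave ORC1 -0.24, CDC6 -1.06, GINS2 0.052 and POLE -1.0, and the authors' deposited table gave -0.80, -0.63, 0.089 and -0.56 for the same genes. Array weights gave ORC1 -0.046, CDC6 -0.069 and GINS2 0.076.

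With probe GC content removed, with or without the replicate block, MCM2 lay at -0.095, MCM3 at 0.0030, MCM5 at -0.0053, MCM7 at -0.19, ORC1 at -0.44, GINS2 at 0.17 and POLE at -0.29. Replicates 1 and 3, with or without the block, gave ORC1 -0.38, CDC45 -0.068, GINS2 0.15 and RFC2 0.060. With the block and probe GC content removed they gave MCM5 -0.016, MCM7 -0.14, ORC1 -0.60, ORC3 0.061, CDC45 -0.039, GINS2 0.24, RFC2 0.16, POLD1 -0.063, POLE -0.15 and TYMS 0.074.

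With 1 array left out at a time, 18 genes changed sign. MCM2 ran from -0.30 to 0.87, MCM3 from -0.26 to 0.058, MCM5 from -0.026 to 0.83, ORC1 from -0.53 to 0.29, CDC6 from -0.19 to 0.20 and CDT1 from -0.21 to 0.40. CDC45 ran from -0.30 to 0.50, GINS2 from -0.31 to 0.24, GINS3 from -0.30 to 0.31, GINS4 from -1.94 to 0.031, RFC2 from -1.10 to 0.040 and RFC5 from -0.77 to 0.12. POLA2 ran from -0.31 to 0.57, POLE from -0.46 to 0.68, RPA1 from -0.77 to 0.095, TYMS from -0.57 to 0.12, CCNE1 from -0.24 to 0.39 and LIG1 from -0.033 to 0.34.

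Signal over background limits the 17 genes that NUDT16 replicate 2 did not measure, whose differences there are set by background readings. The median standard error of 0.65 exceeds the difference of most genes, and adjusted p-values near 1 do not show that these genes were equal between the groups. The settings with probe GC content removed were chosen after the data were seen.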
